A study of Homo sapiens with 4 samples.

Results

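The short arm of chromosome 21 carries repeats of the ribosomal DNA, and 12 of the 9401 SMD2 peaks deposited for HEK293T cells lay in them. The 12 were chosen by their measured position, as every peak on chromosome 21 between 8.2 and 8.45 Mb of hg38, and their widths, spacing and place in the repeat are given below as a description, with no test. The next peaks outside the window lay 776883 nt below the first of the 12, an 11 nt peak at chr21:7432713-7432723, and 355103 nt above the last, a 22 nt peak at chr21:8793852-8793873.

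The groups are 3 libraries of RNA pulled down with SMD2, a protein of the Sm ring on spliceosomal small nuclear RNAs encoded by SNRPD2, and 1 input library. All 4 are from HEK293T, an established human line of embryonic kidney origin, and the labels give no genetic difference between the groups. Per the labels' protocols, cells took up 4-thiouridine (200 uM, 14 h) and were lit at 365 nm, which crosslinks this uridine analogue to bound protein; an antibody to the FLAG tag and RNase T1, which cuts after G, followed. The 1 peak list, that of the SMD2 pull-down, gives bare positions, without height, strand or separate libraries, so depth is unknown and no peak could be set against the input. It holds no expression values against which the cell line could be checked.

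Ribosomal DNA is transcribed by RNA polymerase I in the nucleolus as 1 long precursor. From its 5′ end the precursor consists of the 5′ external spacer, 18S, internal spacer 1, 5.8S, internal spacer 2, 28S and the 3′ external spacer. Spacers are cut away and degraded, 18S enters the small ribosomal subunit, and 5.8S and 28S enter the large one. Both 18S and 28S carry many pseudouridines, placed by box H/ACA small nucleolar ribonucleoproteins. Contact of SMD2 with this modification is the question of the series' design text; no modification was measured in the list, and the question was not analysed here.

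RefSeq places 3 precursor genes in the window. RNA45SN2 spans chr21:8205988-8219302, RNA45SN3 spans chr21:8389035-8402343 and RNA45SN1 spans chr21:8433222-8446572. A partial copy between RNA45SN2 and RNA45SN3 consists of the pseudogenes RNA18SP5, RNA5-8SP10 and a 28S pseudogene, from 8253842 to 8260930. All 12 peaks lay inside these 4 copies: 9 in the precursor genes and 3 in the partial copy. The other 202936 of the 250000 positions in the window held 0 peaks. The 3 precursor genes are near-identical in sequence, so a read cannot be assigned to 1 of them with certainty and the copies are not replicates of each other.

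Only 1 of the 12 peaks was typed as ribosomal RNA in the authors' table. The table assigned 11 of the 12 to long noncoding RNA genes and 1 to a 5.8S gene. The gene ENSG00000280441 received 5 peaks, 4 labelled intron and 1 termination site, although 4 of them lay in RNA45SN3 and 1 in RNA45SN1. ENSG00000280800, ENSG00000280614 and ENSG00000281181 received 1 peak each, all labelled promoter. These 4 genes together held 8 of the 12 peaks. The others went to ENSG00000281383 with 2 peaks and to ENSG00000278996 and ENSG00000277739 with 1 each. Beyond the 5.8S label of ENSG00000277739, what these 7 genes do is not given in the sources used here. Every placement below follows the RefSeq spans instead.

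**Figure D1:**
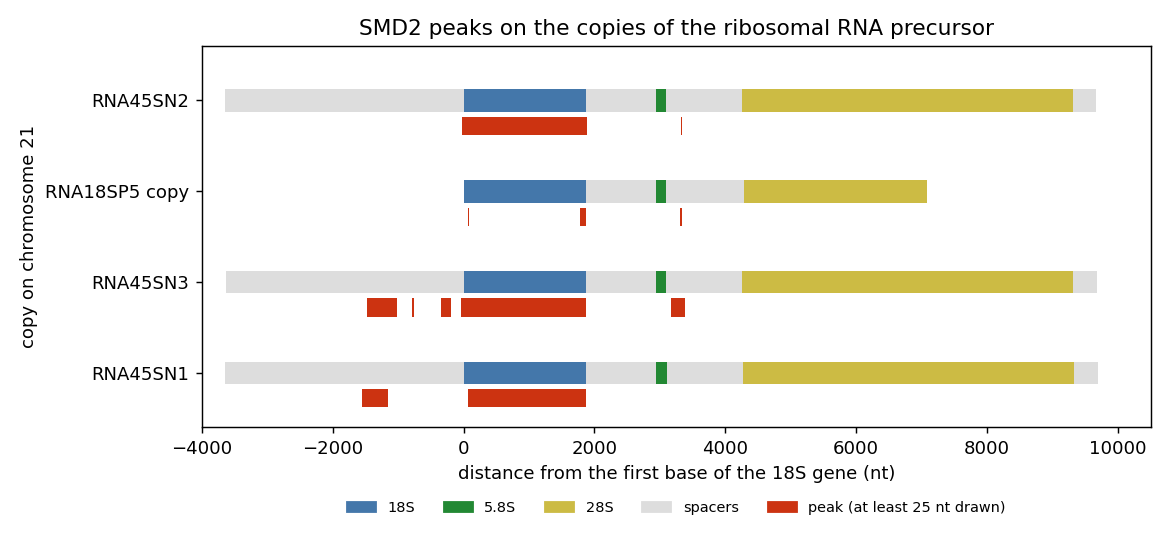
Each row is 1 copy on chromosome 21, drawn to scale against the distance in nt from the first base of its 18S gene, with the segments above and the peaks in red below; peaks narrower than 25 nt are drawn at 25 nt. The wide peaks sit on 18S of RNA45SN2, RNA45SN3 and RNA45SN1, smaller ones lie in the 5′ external spacer and internal spacer 2, and none touches 28S or 5.8S.

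18S sequence held 80.7% of the bases in the 12 peaks, against 15.8% in the 5′ external spacer and 3.18% in internal spacer 2. In RNA45SN2 a peak of 1906 nt at chr21:8209607-8211512 took in the whole 18S gene of 1869 nt, began 24 nt before it and ended 13 nt past it. In RNA45SN3 a peak of 1908 nt at chr21:8392629-8394536 likewise took in all 1869 nt, from 37 nt before to 2 nt past the gene. In RNA45SN1 a peak of 1811 nt at chr21:8436938-8438748 left out the first 62 nt and then ran from 18S position 63 to 4 nt past the gene. The 3 peaks thus ended between 2 and 13 nt past the 3′ end of 18S, while their starts spread over the first part of the gene and the end of the spacer before it. Over the 3 precursor genes 98.9% of the 5607 bases of 18S lay in a peak.

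The wide peaks were spaced much like the genes, which follows from their place on 18S and is no separate result. The 18S genes of RNA45SN3 and RNA45SN1 start 44210 nt apart, and the 2 peaks ended 44212 nt apart but started 44309 nt apart. The 18S genes of RNA45SN2 and RNA45SN3 start 183035 nt apart, and there the peaks started 183022 nt apart and ended 183024 nt apart.

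The 5′ external spacer, which is removed before 18S is finished, held 4 peaks, and 10.1% of its 10928 bases over the 3 precursor genes were covered. In RNA45SN3 these were a peak of 471 nt at chr21:8391183-8391653, one of 15 nt at chr21:8391879-8391893 and one of 157 nt at chr21:8392315-8392471. In RNA45SN1 there was 1, of 403 nt at chr21:8435315-8435717. RNA45SN2 had no peak of its own in this spacer, and only the 24 nt that run ahead of its 18S peak were covered. Counted from the start of the precursor gene, the 471 nt peak covered positions 2149 to 2619 and the 403 nt peak positions 2094 to 2496. On this count they shared 348 nt. Counted from the start of 18S they shared 325 nt, and from the end of 5.8S 319 nt. The 15 nt and 157 nt peaks had no counterpart in the other copies.

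The 5′ external spacer also holds microRNA genes, whose sequences are shown because they are the stretches of this spacer that the reference tables give. RefSeq lists MIR3648-1 in RNA45SN2 and MIR10396B in RNA45SN1, and 0 peaks touched either gene in its own copy, nor any of the 4 MIR6724 genes that lie ahead of the copies. Measured from the start of 18S, MIR3648-1 lies at -1158 to -979, and the 471 nt peak of RNA45SN3, at -1483 to -1013, covers 146 nt of that interval. The 403 nt peak of RNA45SN1 ends at -1159, next to it. MIR10396B, at -552 to -502, falls in the gap between the 15 nt peak and the 157 nt peak of RNA45SN3. The 5′ external spacers of the 3 genes are 3643, 3631 and 3654 nt long, so a position carried from 1 copy to another may be off by about 20 nt. The mature sequence of miR-10396b-3p, at chr21:8436353-8436374, with 86.4% G or C and 1 U, is left out. The mature microRNA sequences below, from the RefSeq table for GRCh38.p14, are printed 5′ to 3′ with the seed (bases 2 to 8) in capitals. That of miR-3648 comes from the further gene MIR3648-2 at chr21:8987026-8987046, plus strand, and that of miR-10396b-5p from chr21:8436324-8436343, plus strand.
hsa-miR-3648: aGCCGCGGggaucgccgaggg
hsa-miR-10396b-5p: cGGCGGGGcucggagccggg
Of their 21 and 20 bases 81.0% and 90.0% are G or C, and each holds 1 U, the base at which 4-thiouridine can stand in. If its place in the hairpin is the same in MIR3648-1, miR-3648 lies at -1131 to -1111, inside the interval of the 471 nt peak of RNA45SN3. The sequence under the peaks themselves was not used here, and these stretches say nothing about it.

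**Figure D2:**
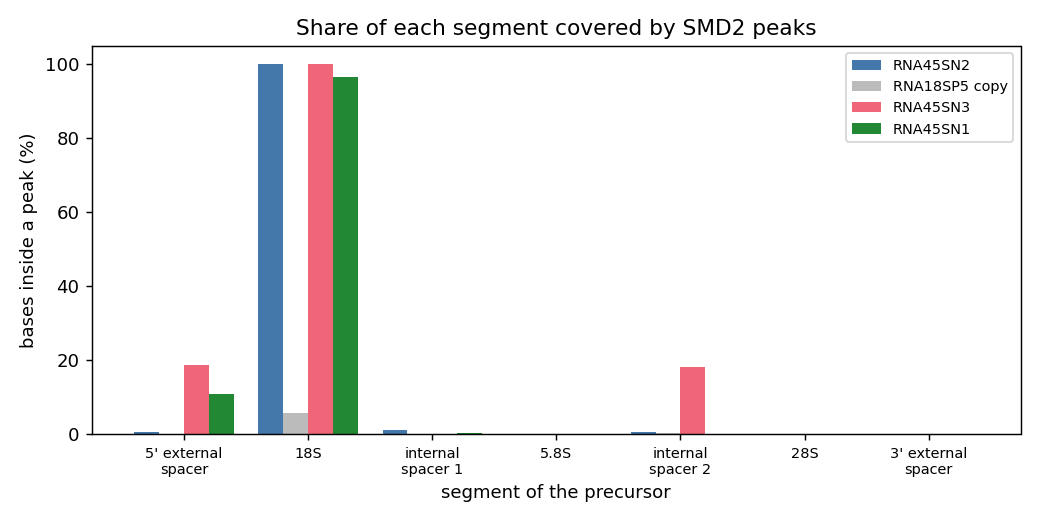
Bars give the percentage of bases inside a peak, from 0, for each segment of the precursor (horizontal axis) in each of the 4 copies. 18S reaches 100% in RNA45SN2 and RNA45SN3 and 96.7% in RNA45SN1, against at most 18.7% in any other segment; the RNA18SP5 copy has no annotated external spacers.

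Internal spacer 2, between 5.8S and 28S, held 3 peaks close to 1 position. In RNA45SN3 a peak of 211 nt at chr21:8395840-8396050 ran from 78 to 288 nt past the end of 5.8S. In RNA45SN2 a peak of 7 nt at chr21:8212949-8212955 lay 222 to 228 nt past it, and in the partial copy a peak of 5 nt at chr21:8257156-8257160 lay 220 to 224 nt past it. The 2 short peaks therefore fell inside the interval of the long one. RNA45SN1 had no peak in this spacer. The peak of 5 nt is the one that the authors' table assigned to a 5.8S gene, and it lay outside RNA5-8SP10. Internal spacer 1, between 18S and 5.8S, held no peak of its own, and 19 of its 3219 bases in the precursor genes were covered, all at the end of 18S peaks.

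The RNAs of the large subunit had no peak in the window. Of 15175 bases of 28S and 471 bases of 5.8S in the 3 precursor genes, 0 were covered, and the same held for the 3′ external spacer. This makes 18S and 28S of the same precursor differ in coverage, 98.9% against 0%, in a list that gives no reads. Whether reads on 28S were absent or were not called was not tested.

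The partial copy differed from the precursor genes. RNA18SP5, the 18S pseudogene, had 2 peaks in place of 1 wide one. The first, of 19 nt at chr21:8253905-8253923, covered positions 64 to 82 of the pseudogene, and the second, of 91 nt at chr21:8255616-8255706, began at position 1775 and ended 2 nt past the pseudogene's end. Together they covered 108 of its 1863 bases. The first started 1 position after the place where the wide peak of RNA45SN1 started, and the second ended in the range of ends of the wide peaks.

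Widths spanned nearly the whole range of the list. The 12 peaks were between 5 and 1908 nt wide with a median of 184 nt, against 23 nt over all 9401 peaks. The median rested on which copies were counted: it was 91 nt without RNA45SN3, 403 nt without the partial copy and 437 nt for the 4 listed genes alone. The 12 held 7004 bases, 2.65% of the 264537 in the list, and 73.7% of the bases of the 115 peaks of chromosome 21. Of the 12, 7 were wider than 100 nt, where 0.808% of all peaks were; the peaks were chosen by position from the same list with their widths known, so nothing is read from this difference. The members nearest to that width were 91 nt and 157 nt. The 3 peaks on 18S took ranks 2, 3 and 4 in the list and held 80.3% of the members' bases. The widest peak of the list, 2017 nt, covered all of the mitochondrial small ribosomal RNA RNR1 and 59.3% of the large one, RNR2. The 471 nt and 403 nt peaks of the 5′ external spacer ranked 5 and 7. At the other end, 4 members were 19, 15, 7 and 5 nt wide, and 25 peaks of the list, this last one included, were 5 nt wide.

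**Figure D3:**
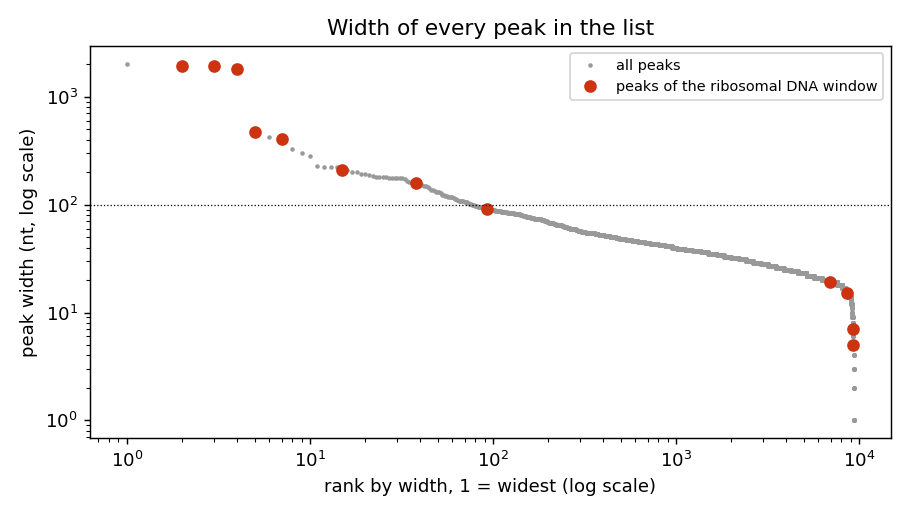
Each point is 1 peak of the list, with its rank by width on the horizontal axis and its width in nt on the vertical axis, both on log scales; the 12 peaks of the ribosomal DNA window are red and the dotted line marks 100 nt. The window's peaks take ranks 2, 3, 4, 5 and 7 and also reach down to 5 nt.

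Between copies, the place of peaks was compared by position in the repeat. Among the 24 pairs of peaks from different precursor genes, most of which join different segments, 5 overlapped when counted from the start of the gene. The 5 were the 3 pairs of 18S peaks, the pair in the 5′ external spacer and the pair in internal spacer 2. On this count 0 pairs had both ends within 10 nt, but the spacers ahead of 18S differ in length, by more than 10 nt in every pair of genes, so that even peaks at the same place in 18S would miss that limit. Counted from the start of 18S, the peaks of RNA45SN2 and RNA45SN3 differed by 13 nt at the 5′ end and 11 nt at the 3′ end. On the same count the 3′ end in RNA45SN1 lay 2 nt from that in RNA45SN3, while the 5′ ends lay 99 nt apart. Peak number differed too, with 5 peaks in RNA45SN3, 3 in the partial copy and 2 each in RNA45SN2 and RNA45SN1. The peaks of RNA45SN3 held 39.4% of the members' bases, those of RNA45SN1 31.6%, those of RNA45SN2 27.3% and those of the partial copy 1.64%.

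Ribosomal RNA pseudogenes outside the window, which are diverged copies, show how much of the 18S pattern is seen elsewhere. RefSeq lists 23 of them on assembled chromosomes, and 10 held a peak, 25 peaks in all with a median width of 29 nt and a range of 3 to 283 nt. Of 7 pseudogenes of 18S, 6 held 17 peaks that covered 8.80% of their bases. Of 5 pseudogenes of 28S, 3 held 7 peaks that covered 0.973%, and of 11 pseudogenes of 5.8S, RNA5-8SP6 alone held 1, of 42 nt. No 18S pseudogene had a peak over its whole length, and the highest coverage was 24.4%, in RNA18SP on chromosome 22 with 1 peak of 283 nt. More of 18S than of 28S was thus covered in these pseudogenes too. The levels differ from those of the precursor genes, where 18S was covered at 98.9% and 28S at 0%. No test was made, since reads can be shared between the copies.

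The orientation of 5 of the 18S pseudogenes with a peak could be read from the 5.8S pseudogene beside them, and their peaks were set on 18S positions. Some overlapped a peak of another pseudogene and others did not. The peaks without an overlap lay at positions 1268 to 1329 in LOC110467533, 483 to 499 in LOC110467535 and 24 to 52 in LOC110467534. In RNA18SP2 those at 83 to 224 and 322 to 353 had none either. The overlaps were as follows. Positions 371 to 438 were covered by 2 touching peaks in LOC110467533 on chromosome 2, and positions 372 to 419 by 1 peak in LOC110467534 on chromosome 22. Near the 3′ end, peaks covered positions 1358 to 1577 in LOC110467536 on chromosome 14, 1505 to 1552 and 1561 to 1585 in LOC110467535 on chromosome 20, and 1555 to 1583 in LOC110467533. Positions 1707 to 1743 in LOC110467536 and 1700 to 1729 in LOC110467534 also overlapped. In RNA18SP2 on chromosome Y the peak at positions 1805 to 1814 fell inside the interval of the second peak of RNA18SP5. The pseudogenes differ in length from 18S by up to about 20 nt, so these positions are approximate. Reads can be shared between the copies, so the overlaps are a description only.

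**Figure D4:**
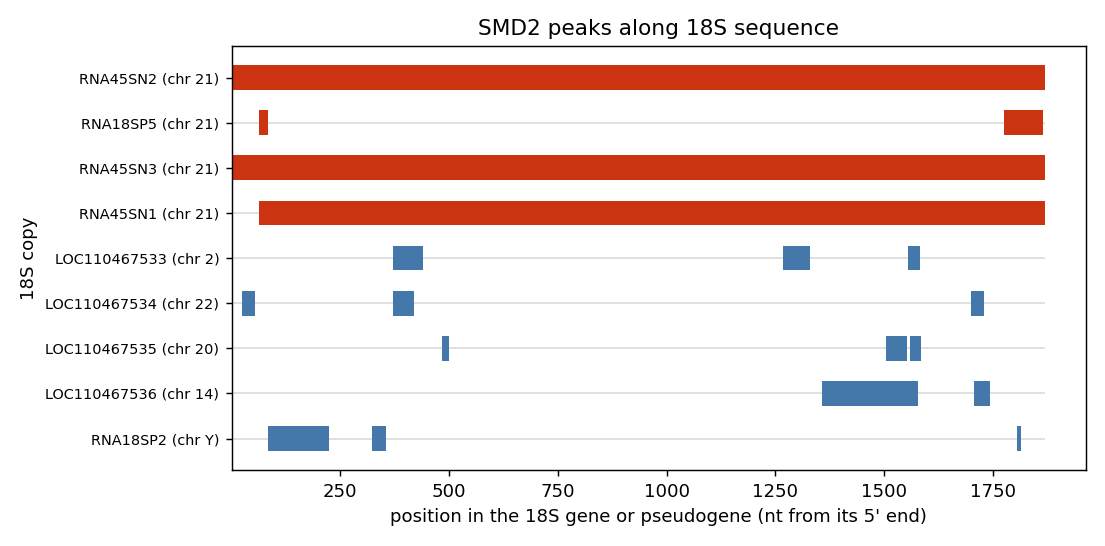
Each row is an 18S gene or pseudogene and each bar a peak, placed by position in nt from the 5′ end of that gene, in red for the window on chromosome 21 and in blue elsewhere. The 3 genes of the window are covered over 96.7% to 100% of their length, and RNA18SP5 at positions 64 to 82 and from 1775 on. The pseudogenes elsewhere are covered by peaks of 10 to 200 nt, several at 371 to 438 and at 1505 to 1585 and others apart from these.

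Gene names in the authors' table also differed from RefSeq positions elsewhere. Of 21 peaks in the list assigned to a 5.8S gene or pseudogene, 1 touched a 5.8S gene or pseudogene of RefSeq, 11 lay on an 18S pseudogene, 3 on a 28S pseudogene and 6 on none of these. The 5S RNA, the remaining RNA of the large subunit, is made by RNA polymerase III from genes outside the ribosomal DNA. None of its 17 genes RNA5S1 to RNA5S17 was touched by a peak (0 of 17). Of 510 RNA5SP pseudogenes 5 (0.980%) were: RNA5SP145, RNA5SP149, RNA5SP218, RNA5SP429 and RNA5SP506. No share over other genes of such length was computed. Whether reads on the 17 genes were absent or were not called was not tested. By its own gene names, the authors' table assigned 11 peaks to a 5S gene or pseudogene. Peaks covered 90 of the 125 nt of RNA5SP145, 88 of the 91 nt of RNA5SP149 and 83 of the 95 nt of RNA5SP429. They covered 24 of the 119 nt of RNA5SP506 and 18 of the 109 nt of RNA5SP218, the latter from a peak that the authors' table assigned to SGK1.

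Transcripts of the genes that make and process the precursor were looked at last. Over all 20056 protein-coding genes 21.6% held at least 1 peak outside the intergenic class. Of 24 genes for RNA polymerase I, its factors and the topoisomerases and nucleolin that act with it, 10 held a peak (41.7%, Wilson 95% interval 24.5 to 61.2%), each exactly 1, between 19 and 48 nt wide. With at least 2 peaks as the criterion the share was 0% of this list (Wilson 95% interval 0 to 13.8%). That interval takes in the 7.31% of all protein-coding genes, while the interval for at least 1 peak lies above the 21.6%. The list was chosen with earlier results known and was not matched for gene length, so nothing is read from either. Among the 10 genes with a peak, POLR1B, the second largest subunit of the enzyme, had a 27 nt peak in an intron. POLR1E and POLR1F, further subunits, had peaks of 33 and 48 nt in the 3′ UTR. POLR1D, a subunit shared with RNA polymerase III, had one of 29 nt at the termination site. POLR2F and POLR2K, subunits shared by all 3 nuclear polymerases, had peaks of 20 nt in an intron and 19 nt in the 3′ UTR. TAF1B of the promoter selectivity factor and TTF1, which ends transcription of the repeat, were also among the 10, each with an intronic peak, as were TOP1 and TOP2A.

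Of 94 genes for processing of ribosomal RNA 26 held a peak (27.7%, Wilson 95% interval 19.6 to 37.4%), an interval that takes in the 21.6% of all protein-coding genes. PELP1, of the complex that matures the large subunit, had 4 peaks, all in exons. XRN2, the 5′ to 3′ exonuclease that trims the spacers, had 3 intronic peaks, and so did EFL1, a GTPase of large subunit maturation. TCOF1, a nucleolar factor of precursor transcription, had 3 peaks of 29 to 121 nt. DIS3, a catalytic subunit of the exosome, had 2 intronic peaks, and MDN1, an ATPase of the large subunit, 2 in exons. Neither list was matched for gene length, so these shares are a description only.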

How the data were processed

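PAR-CLIP of SMD2 in HEK293T cells gave 1 deposited list of 9401 peaks, that of the SMD2 immunoprecipitation. Which of the 3 immunoprecipitated libraries it draws on is not given. The 1 input library has no value in the list. Per the file header the values are other than counts: positions with a transcript, gene, annotation class and gene type. The submitters' processing notes name hg38, Bowtie2 2.5.1 and Trim Galore 0.6.10. How peaks were called and at what threshold, whether the input entered, whether libraries were pooled and how reads matching several copies were placed is not given in the sources used here. Starts were taken as counted from 0 and are printed counted from 1.

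Members were the peaks between 8.2 and 8.45 Mb on chromosome 21. Segments came from RefSeq gene spans (GRCh38.p14), with the strand taken from the order of 18S, 5.8S and 28S. A peak belonged to the segment with most of its bases. A pair of peaks had the same repeat position when both ends differed by at most 10 nt. Pseudogenes were RefSeq entries with RNA18SP, RNA28SP or RNA5-8SP in the symbol or a synonym, so that many carry placeholder symbols; 6 entries on scaffolds were not analysed here. Wilson 95% intervals stand beside shares of genes and cover only counting error. No test was made, since peaks of 1 list are not replicates.

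Members, gene lists and named genes were chosen with earlier results of these data known. All genes of the window were named, and of each list up to 6 genes, those with the most peaks (ties by symbol); TAF1B, TTF1, TOP1 and TOP2A were named beyond this rule after their values were seen. Overlap and segment steps were tested on simulated data. Scripts ran in Python 3.11.15 with pandas 2.3.3, numpy 2.4.6, matplotlib 3.10.9 and scipy 1.17.1.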

Additional observations from a re-analysis of the deposited data

How the results depend on the processing

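For 7 results 35 alternative values were computed, and 25 were kept. Kept means that a share or a median stayed within its 95% interval or a count within a fixed ratio. The 25 say little about stability. Merging touching peaks or peaks within 50 nt could change nothing, as the smallest gap between members was 157 nt. Widening the window by 200000 nt fell short of the next peaks on either side. The interval of the median takes the 12 peaks as independent, which peaks of 1 list are not. Medians of 91, 403 and 437 nt all counted as kept. Selection by the 4 gene IDs gave 8 peaks in place of 12, which also counted as kept. The share of member bases in 18S, 80.7%, became 74.3% without RNA45SN2 and 89.2% without RNA45SN3. As a share of peaks, by midpoint or by any overlap, it was 41.7%. Pairs of peaks at the same repeat position, 0 at a tolerance of 10 nt, became 1 at 50 nt and 5 with any overlap. Counted from the start of 18S with the RNA18SP5 copy included, a choice made after seeing the data, they became 1, and 13 with any overlap. That 1 pair was not on 18S. It joined the 7 nt peak of RNA45SN2 and the 5 nt peak of the RNA18SP5 copy in internal spacer 2. Both are narrower than the tolerance of 10 nt, and they shared 1 nt. Genes with at least 2 peaks were 0% of the RNA polymerase I list (Wilson 95% interval 0 to 13.8%), in place of 41.7%. They were 7.45% of the processing list, in place of 27.7%, against 7.31% of all protein-coding genes. The median width ranged from 91 nt (without RNA45SN3) to 437 nt (the 4 gene IDs only, a choice made after seeing the data). A stricter peak threshold could not be tried, since the list holds no score. No paired analysis was possible because the list has no column per library and no result comes from a test. Depth per library is unknown.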
